A study of Homo sapiens with 2 samples.

Results

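The cyclins and the cyclin-dependent kinases (CDKs) that drive the cell cycle were examined in hepatoma cells treated with hawk tea extract (HTE). The 10 genes, taken by name, were the 7 cyclins CCNA2, CCNB1, CCNB2, CCND1, CCND3, CCNE1 and CCNE2 and the 3 kinases CDK1, CDK2 and CDK4. Their probes were found through the RefSeq transcripts on the array, which gave 13 probes and 58 spots out of 50599 probes and 58717 spots that are not controls. All 10 were among the 23752 genes and transcripts that could be measured, which needed a signal well above background on 1 array or both. HepG2, a cultured human hepatoma line, had been kept for 24 h with HTE at 200 μg per mL per the labels (the study's text gives a higher dose), or with 1‰ DMSO, the solvent of the extract. RNA of each culture was hybridised to 1 Agilent 1-colour array, so there were no replicates, no test was possible, and the treatment and any other difference between the cultures or arrays cannot be told apart.

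A CDK is inactive until a cyclin binds it. The E-, A- and B-type cyclins are made and destroyed once per cycle, so their kinases take their timing from these partners. D-type cyclins with CDK4 open the G1 phase by phosphorylating the retinoblastoma protein, cyclin E with CDK2 starts DNA replication, cyclin A carries the cell through S and G2 phases, and cyclin B with CDK1 starts mitosis. Most hepatocytes of the adult liver rest outside the cycle, whereas a hepatoma line divides continuously.

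All signals are the processed, background-subtracted intensities of the scanner software. For a ratio of HTE over DMSO, the log2 signal was taken relative to the 75th percentile of its array, at 4020 (DMSO) and 3570 (HTE). No spot was saturated and none of the 58 spots was marked as an outlier. The only errors that could be measured are those of the array: replicate spots of a probe gave log2 ratios with a median SD of 0.05 (688 probes), and different probes of a gene 0.16 (3759 genes). Where a probe had 1 spot, the software's own error of its 2 signals came to about 0.20 on the log2 ratio for a bright spot. The 6 hepatocyte markers ALB, AFP, APOA1, TTR, FGB and HNF4A were well above background on both arrays, with log2 ratios from -0.36 (FGB) to 0.21 (APOA1). Of the markers of other cells, CD3E, COL1A2 and DCN were not well above background on either array, while PTPRC, CD68, PECAM1, VWF and COL1A1 each had at least 1 probe that was. The log2 ratios of the brightest probes of these 5 ran from -1.82 (PECAM1) to 0.46 (CD68), and their part in the results below was not tested.

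Of the 10 genes, 9 were lower on the HTE array and 3 of them (CCNA2, CCND1 and CCNE2) were at least 2-fold lower, a limit that 3.03% of all genes and transcripts passed in this direction. The median log2 ratio of the 10 was -0.87, a signal 1.83-fold lower, against 0.00 for all genes and transcripts, of which 49% were lower by any amount. None of the 10 was at least 2-fold higher, compared with 5.25% of all. All 7 cyclins were lower, from -1.73 to -0.66, and CDK4 was the exception among the 10 at 0.11, a sign that turned without scaling and with scaling to spike-in RNA (the E1A control transcripts added when RNA is labelled). In RNA of a whole culture, fewer cells in a phase of the cycle and less RNA per cell cannot be told apart.

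**Figure D1:**
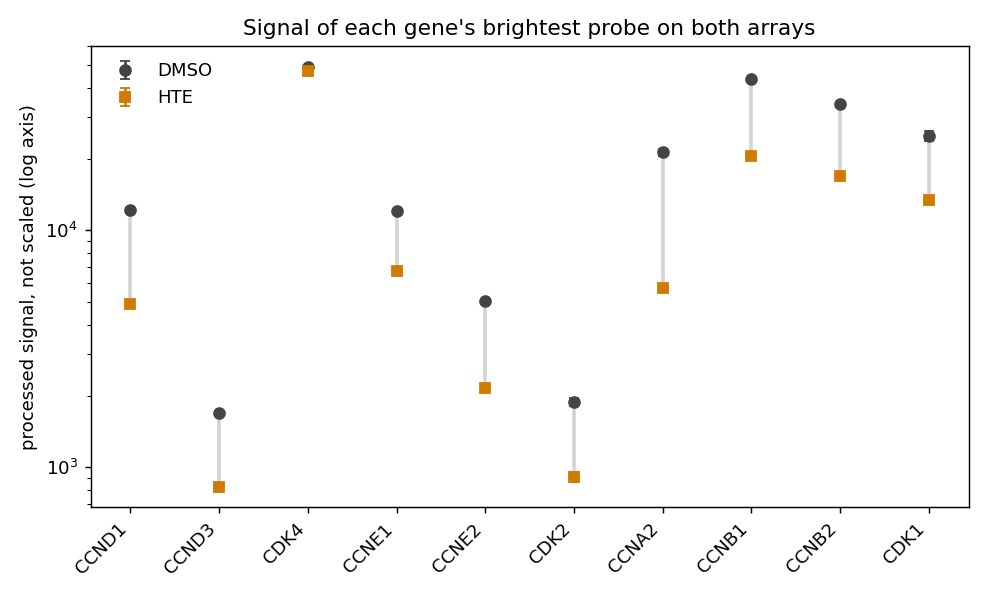
Processed signal of the brightest probe of each gene (vertical log axis, not scaled between arrays) on the DMSO array (circles) and the HTE array (squares), 1 array each. Points are means over spots and bars, mostly smaller than the points, the SD where a probe has 10 spots. Signals of different genes come from different probes and are not to be compared, and a reader should see the drop within each gene, which is nearly absent for CDK4 (48985 to 46885).

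In G1 phase, the D-type cyclins CCND1 and CCND3 were lower, and the sign of their kinase CDK4 depended on the scaling. CCND1, the D-type cyclin that couples growth signals to the cycle, had a signal of 12156 ± 234 (SD, 10 spots) on the DMSO array and 4895 ± 162 on the HTE array. Its log2 ratio was -1.14 ± 0.04 (SD, 10 spots), 2.21-fold lower, with every spot between -1.22 and -1.08. CCND3, a related D-type cyclin, was measured at 1 spot, with a signal of 1688 in DMSO-treated cells and 828 in HTE-treated cells. Its log2 ratio was -0.86, and the spots around it had a median of -0.21, which brings it to -0.65 when subtracted. CDK4 had signals of 48985 and 46885, also at 1 spot. Its log2 ratio of 0.11 was smaller than the software's error of 0.20, and fell to -0.06 without scaling of the arrays and to -1.11 with scaling to spike-in RNA.

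At the entry into S phase, both E-type cyclins and their kinase CDK2 were lower. CCNE1 had signals of 12056 on the DMSO array and 6758 on the HTE array at its 1 spot, a log2 ratio of -0.66. CCNE2, the second cyclin E gene, was measured by 2 probes for the same transcript. The brighter went from 5010 to 2148 (log2 ratio of -1.05) and the dimmer from 716 to 301 (-1.08), so that the probes gave nearly the same ratio. Its place past 2-fold was lost with normexp background correction (-0.96) and after the ratio of the neighbouring spots was subtracted (-0.94). CDK2 had a signal of 1883 ± 69 (SD, 10 spots) in DMSO-treated cells and 909 ± 43 in HTE-treated cells. Its log2 ratio of -0.88 ± 0.08 (SD, 10 spots) was close to that of cyclin B1 and far from that of CDK4.

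Among the genes of S, G2 and M phases, CCNA2 stood apart. CCNA2 encodes cyclin A2, the partner of CDK2 in S phase and of CDK1 later on. Its signal was 21311 ± 774 (SD, 10 spots) on the DMSO array and 5722 ± 224 on the HTE array. The log2 ratio was -1.73 ± 0.05 (SD, 10 spots), which left 30.2% of the DMSO level, and every spot lay between -1.83 and -1.66. The B-type cyclins, which turn CDK1 into the mitotic kinase, were less reduced. CCNB1 went from 43550 ± 889 to 20583 ± 553 (SD, 10 spots), a log2 ratio of -0.91 ± 0.05. A second CCNB1 probe for the same transcript gave 15758 and 7932 (-0.82). CCNB2 went from 34287 to 16982 at its 1 spot, a log2 ratio of -0.84. CDK1, the kinase that all 3 of these cyclins can bind, went from 24993 ± 1197 to 13437 ± 379 (SD, 10 spots), a log2 ratio of -0.72 ± 0.06. Another CDK1 probe, designed to a different transcript of the gene (NM_001170406), had a signal of 82.2 on the DMSO array and was not well above background on the HTE array (19.5), where the bound was under 1-fold, and no fold is given for it.

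**Figure D2:**
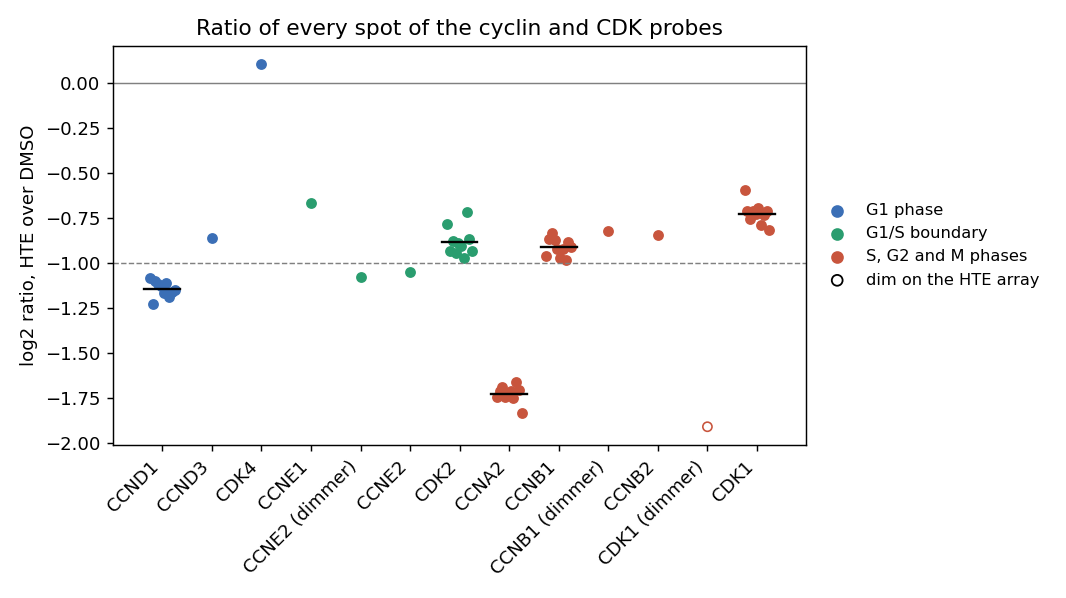
Log2 ratio of HTE over DMSO (vertical axis) for each spot of the 13 probes, grouped by gene and coloured by the phase in which the gene acts, with the mean as a black line where a probe has 10 spots. The dashed line marks a 2-fold decrease, and the open point is the CDK1 probe that was dim on the HTE array. The 10 spots of CCNA2 (-1.83 to -1.66) lie below every spot of CCND1, CDK2, CCNB1 and the bright CDK1 probe.

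The 5 genes with 10 spots allowed the ratios to be set against each other, 10 pairs in all, with the spread of spots as the only error. In 8 of the pairs the ranges of the spots did not overlap, and they overlapped between CDK2 and CCNB1 and between CDK2 and CDK1. How often the spot ranges of other probes overlap was not counted. Spots of a probe also leave out the difference between probes of a gene (median SD of 0.16), so ranges that do not overlap do not by themselves order the genes. The log2 ratio of CCNA2 was 0.58 below that of CCND1, 0.82 below that of CCNB1 and 1.00 below that of CDK1. CCNB1 was 0.19 below CDK1 on the same scale, a difference close to that SD of 0.16.

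In the order of the log2 ratios over all 10 genes, CCNA2 came first, followed by CCND1, CCNE2, CCNB1, CDK2, CCND3, CCNB2, CDK1, CCNE1 and CDK4. The steps from CCND1 to CCNE1 were between 0.01 and 0.14 and thus below the SD of 0.16 among probes of a gene, so neighbours in this stretch could not be ordered. The steps on either side of it, 0.58 after CCNA2 and 0.77 before CDK4, were larger. Of all genes and transcripts, 0.396% had a lower ratio than CCNA2, 1.94% a lower one than CCND1 and 8.43% a lower one than CCNE1. For CDK4 the share was 63.5%.

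**Figure D3:**
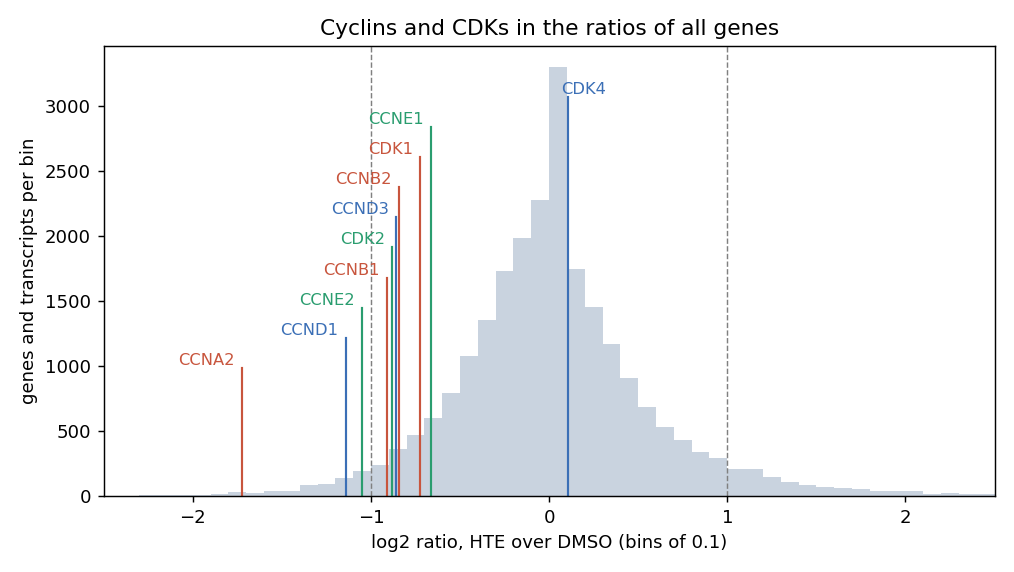
Number of genes and transcripts (vertical axis) in bins of 0.1 of the log2 ratio, HTE over DMSO (horizontal axis, shown from -2.5 to 2.5), with the 10 genes as coloured lines whose height serves only to separate the names. Dashed lines mark 2-fold, and the tallest bin starts at 0 because ratios with a bound under 1-fold were set to 0. CCNA2 lies in the left tail (-1.73), 8 genes lie between -1.14 and -0.66, and CDK4 lies at 0.11 (below 0 without scaling and with spike-in scaling).

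The promoters of the genes are shown because the members that act from S phase to mitosis are known targets of shared elements: the cell cycle genes homology region (CHR), bound by the MuvB complex, the CCAAT box, bound by NF-Y, and E2F sites. RefSeq promoter windows of GRCh38.p14, 250 bases before to 50 bases after a start site, were at hand for 7 of the 10 genes (not for CCND1, CCNE2 and CDK2), with 3 windows for CCND3 and 2 overlapping windows for CDK1. Both strands were searched. CHR was taken as TTTGAA and the CCAAT box by its name. An E2F word was either TTCGCGC or its variant TTCCCGC, and further the word TTGGCGC or its variant TTGCCGC. Matches of different elements did not overlap in these windows. The 250 bases before the start site follow, 5′ to 3′ on the strand of the gene, for the 4 genes of S, G2 and M phases (the downstream window of CDK1) and for CDK4, with matches in capitals.

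CCNA2 (chr4:121823884-121824133, minus strand): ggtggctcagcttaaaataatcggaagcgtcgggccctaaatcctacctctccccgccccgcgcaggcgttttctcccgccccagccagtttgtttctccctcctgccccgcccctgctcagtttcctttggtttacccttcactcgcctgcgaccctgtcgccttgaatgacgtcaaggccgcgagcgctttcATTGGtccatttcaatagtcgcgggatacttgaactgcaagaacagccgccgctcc

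CCNB1 (chr5:69166900-69167149, plus strand): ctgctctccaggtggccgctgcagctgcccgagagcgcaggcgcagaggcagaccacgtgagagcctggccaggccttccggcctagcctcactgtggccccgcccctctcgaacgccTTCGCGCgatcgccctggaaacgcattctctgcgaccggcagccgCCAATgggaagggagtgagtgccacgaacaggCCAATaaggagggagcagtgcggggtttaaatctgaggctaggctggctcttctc

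CCNB2 (chr15:59104896-59105145, plus strand): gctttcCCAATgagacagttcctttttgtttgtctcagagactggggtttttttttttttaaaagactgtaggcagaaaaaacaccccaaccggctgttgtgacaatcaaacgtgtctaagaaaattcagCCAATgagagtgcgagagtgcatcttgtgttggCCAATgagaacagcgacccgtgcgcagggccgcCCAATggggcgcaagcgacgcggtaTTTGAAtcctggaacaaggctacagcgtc

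CDK1 (chr10:60778228-60778477, plus strand): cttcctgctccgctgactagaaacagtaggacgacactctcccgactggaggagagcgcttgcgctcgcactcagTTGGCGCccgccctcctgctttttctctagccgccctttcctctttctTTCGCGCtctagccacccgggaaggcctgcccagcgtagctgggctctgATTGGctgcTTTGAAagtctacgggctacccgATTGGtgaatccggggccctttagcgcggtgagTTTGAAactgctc

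CDK4 (chr12:57752311-57752560, minus strand): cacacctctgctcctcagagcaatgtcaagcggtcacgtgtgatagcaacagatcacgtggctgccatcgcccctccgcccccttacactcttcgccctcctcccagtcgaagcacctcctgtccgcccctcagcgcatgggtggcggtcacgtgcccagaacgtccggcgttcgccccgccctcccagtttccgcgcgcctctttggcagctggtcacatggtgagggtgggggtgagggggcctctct

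CCAAT was found in 5 of the 7 genes (CCNA2, CCNB1, CCNB2, CCND3 and CDK1), and in 39.7% of the 27305 genes with a window. CCNB2 had 4 matches, whose first bases were at -244, -120, -87 and -54 from the start site, and 3 or more were found in 3.26% of all 35116 windows. CHR was found in CCNB2 at -29 and in CDK1, where the downstream window held matches at -69, -13 and, past the stretch shown, 10, against 18.2% of all genes. E2F words were found in CCNB1 at -132 and in CDK1 at -175 and -127, against 15.3% of all genes. No match to these words was found in the windows of CDK4 and CCNE1. In CCNA2, the gene with the lowest ratio, the words searched matched at 1 place, a CCAAT at -56 on the opposite strand. CHR was searched as TTTGAA alone and E2F sites only as the words named above. Other variants of either were therefore not counted in any promoter, including those of CCNA2, CDK4 and CCNE1. The matches are a description of the letters, and whether a factor bound there was not measured.

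The other genes that act in the same machinery were taken from lists, and each gene is given by its brightest probe. The first list held 10 further genes, cyclins and CDKs taken as those of the cycle together with MNAT1. Of these, 9 were measured and none was past 2-fold, with 6 lower, 3 higher and a median log2 ratio of -0.07. CCNF, a cyclin that serves in a ubiquitin ligase, was lowest (-0.83) and CCND2, the third D-type cyclin, was highest (0.53). CDK6, which shares the D-type cyclins with CDK4, had a log2 ratio of -0.25. The kinase that activates the CDKs, made of CDK7, CCNH and MNAT1, had ratios of 0.36, -0.20 and -0.04. Thus CCND1 and CCND3 were lower while CCND2 was higher, except with scaling to spike-in RNA, under which all 9 measured genes were lower and the ratio of all genes had a median of -1.21.

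Of the 7 CDK inhibitors, none was past 2-fold, 3 were lower and 4 higher, with a median of 0.00. CDKN2C, an inhibitor of CDK4 and CDK6, was lowest, with signals of 8199 and 3983 (log2 ratio of -0.87). The largest value was that of CDKN2B (at least 0.89), which was well above background only on the HTE array, at a signal of 110. CDKN1A, which encodes p21, had signals of 927 and 1459 (0.83). With normexp background correction, scaling to the median or no scaling, 4 of the 7 were lower, and with spike-in scaling 6 were. CDKN2C passed 2-fold without scaling (-1.04), and CDKN2B did when its own dim value was used (1.42).

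Of 8 genes that switch CDKs on or off, 7 were lower and 2 at least 2-fold, with a median of -0.61. These were CDC25A (log2 ratio of -1.02) and CDC25C (-1.02), phosphatases that remove the inhibitory phosphates of CDKs, and CDC25A had signals of 13377 and 5839. WEE1, the kinase that adds such a phosphate, was the only one higher (0.21), and the related PKMYT1 was lower (-0.60). With normexp background correction 6 of the 8 were lower, since CKS1B turned from -0.08 to 0.15, and with scaling to spike-in RNA all 8 were. CKS1B also moved down, to -0.48, after subtraction of the neighbouring spots, and its 2 probes gave -0.44 and -0.08 under the reported scaling. CDC25A fell short of 2-fold after subtraction of the neighbouring spots (-0.95) and CDC25C with quantile normalization (-0.99).

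Of 8 genes for the destruction of cyclins and CDK inhibitors, 5 were lower, 2 of them at least 2-fold, and 3 were higher, with a median of -0.26. SKP2, which marks the CDK inhibitor p27 for destruction, went from 1373 to 479 (log2 ratio of -1.35), and FBXO5, an inhibitor of the anaphase-promoting complex, had a ratio of -1.14. FZR1, an activator of that complex in G1, was highest (0.47). With subtraction of the neighbouring spots 4 were lower, without scaling 7 and with scaling to spike-in RNA all 8, while SKP2 and FBXO5 stayed past 2-fold under each of the 11 alternatives.

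Cyclins and CDKs listed for their work in transcription and splicing had a median of 0.04. Of these 13 genes 6 were lower and 7 higher, where 49% of all genes and transcripts were lower. CCNL1 was lowest (log2 ratio of -0.44). CCNL2 was highest at its brightest probe (1.27) and was the only gene of the list past 2-fold, but its 3 probes ran from -0.47 to 1.27 and averaged to 0.28. The median of this list went below 0 with normexp background correction, subtraction of the neighbouring spots and each of the other scalings (to the median, to spike-in RNA or none), though not with quantile normalization.

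**Figure D4:**
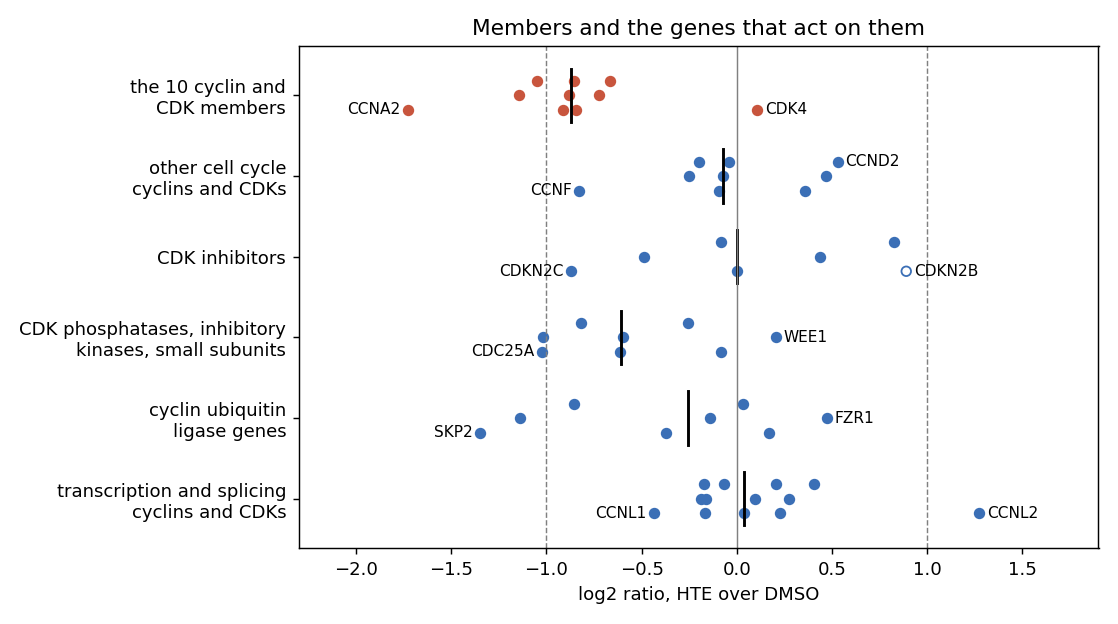
Log2 ratio of HTE over DMSO (horizontal axis) of the 10 cyclin and CDK genes and of 5 lists of related genes, 1 point per gene at its brightest probe, with the median as a black line, dashed lines at 2-fold and an open point for a bound. The median of the 10 (-0.87) lies lowest, and that of the transcription and splicing list lies at 0.04 (below 0 under the alternatives named in the text).

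The decrease of the 9 genes had the same direction under all 11 alternative settings, whereas the sign of CDK4 depended on the scaling. Several of these settings do not test the direction. Those on dim probes and outlier spots left the ratios of the brightest probes unchanged, and the 3 other scalings shifted all ratios down. The distance between the median of the 10 genes and that of all genes was -0.87 as reported. It was -0.88 with scaling to the median, with no scaling and with scaling to spike-in RNA, which is the same value by construction because these 3 settings shift measured ratios by a constant and so does not test stability. It was -0.81 with normexp background correction and -1.08 without the filter on dim probes, which moved the median of all genes to 0.21. The count past 2-fold moved with the scaling. Without scaling it was 7 of 10, with 5.09% of all genes past 2-fold, and with spike-in scaling it was 10 of 10, with 68.2% of all genes. The ratios of spots around the members, over the windows used for the subtraction, had medians for each probe between -0.21 (CCND3) and 0.05 (CCNA2).

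**Figure D5:**
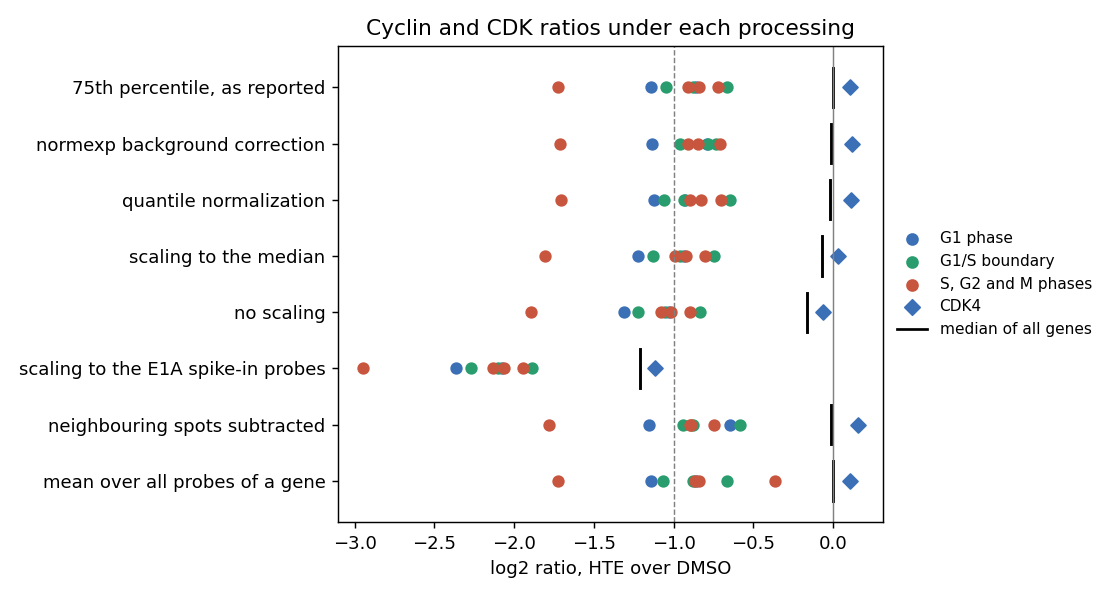
Log2 ratio of HTE over DMSO (horizontal axis) of the 10 genes under the reported scaling and 7 of the 11 alternative settings (rows), with the median of all genes as a black line and the dashed line at a 2-fold decrease. The 9 genes other than CDK4 (diamond) lie left of the line of all genes in every row, and CDK4 moves from 0.11 to -0.06 without scaling and to -1.11 with spike-in scaling.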

How the data were processed

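The authors extracted the arrays with Agilent Feature Extraction (11.5.1.1 in the file headers, 10.7 in the submitters' processing notes) and deposited intensity values, background-subtracted, detrended and not scaled between arrays, with flags for spots above background and outliers. The study's methods call a 2-fold difference a change. The file headers name hg19 and the gene table is GRCh38.p14, so probes were matched by RefSeq accession without version (28146 probes matched). Control and outlier spots were left out, log2 signals were taken relative to the 75th percentile, and spots were averaged per probe. Probes with at least 0.5 of their spots well above background on 1 array were kept (29680). A probe dim on 1 array has a bound against the lowest signal well above background there or its own, whichever was higher, and a bound under 1-fold counts as 0. The brightest probe stands for a gene. The text names all 10 members, and of each list the lowest, the highest and those past 2-fold, with CDK6, CDK7, CCNH, MNAT1, CDKN1A, PKMYT1, CKS1B, CCNG1 and CCNI chosen after their values were seen. The members and lists were chosen with earlier results of these data known. Alternatives were normexp background correction of the median spot signals, quantile normalization, other scalings, filters and fold limits, subtraction of the ratio of spots within 5 rows and columns, and the mean over probes. In a test on simulated data, a copy of the DMSO array with noise of 0.1 had 200 genes shifted by 1.5 (log2), and 198 of the 198 that were measured were recovered. As the shift lay well past the 2-fold limit and the noise was small, recovery was near certain and bears only on the calculation. Tools were limma 3.58.1 in R 4.3.3, and Python 3.11.15 with matplotlib 3.10.9, numpy 2.4.6 and pandas 2.3.3.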

Additional observations from a re-analysis of the deposited data

How the results depend on the processing

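With 1 array per condition no error between cultures exists, and the number of arrays limits the precision. Values were taken as moved when they changed by over 0.05, the median SD of replicate spots, or by more than 1.5 times for counts, and apart from shifts built into a scaling the cause was not tested. No paired analysis was possible because there was 1 array per condition. The median log2 ratio of the 10 genes moved to -0.95 with scaling to the median, -1.04 without scaling and -2.09 with scaling to the E1A spike-in RNA. The number of members at least 2-fold lower, 3 as reported, became 7 without scaling, 10 with spike-in scaling, 9 at a limit of 1.5-fold and 1 at 3-fold. The share of all genes past the limit, 3.03% as reported, became 1.97% with normexp background correction, 5.09% without scaling, 68.2% with spike-in scaling, 5.56% with dim probes at their own value, 10.5% at 1.5-fold and 0.543% at 3-fold. In counts, 720 lower and 1248 higher genes became 468 and 825 with normexp, 1209 and 883 without scaling, 16205 and 142 with spike-in scaling, 1868 and 2390 without a filter on dim probes, and 1320 and 1341 with dim probes at their own value. Higher genes were 63.4% of the changed ones as reported, 42.2% without scaling, 0.869% with spike-in scaling and 50.4% with dim probes at their own value. The ratio of all genes had a median of -0.16 without scaling. Over all probes of a gene, CDK1 averaged to -0.36, since the bound of its dim probe was set to 0.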

Other observations

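The remaining 25 symbols on the array that are named like cyclins or CDKs were listed after the values had been seen. Most lie outside the cell cycle or are of unsettled role, and CCNDBP1 (log2 ratio of 0.83) is named for binding a cyclin and is not itself a cyclin. In all, 21 of the symbols were measured. Of these 7 were lower and 14 higher on the HTE array, with a median log2 ratio of 0.09 (11 lower and a median of -0.09 without scaling, and 19 lower with spike-in scaling). CCNG2, an atypical cyclin associated with cell cycle exit, had signals of 167 and 412 (log2 ratio of 1.47, and 0.25 with spike-in scaling). CDK18 was well above background only on the HTE array, with a signal of 225 and a log2 ratio of at least 1.93 (1.22 after normexp background correction and 0.71 with spike-in scaling, which is short of 2-fold for both genes). CCNG1 and CCNI, related cyclins with bright probes, had log2 ratios of 0.37 and 0.38 (-0.85 and -0.84 with spike-in scaling).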
